A study of Mus musculus with 6 samples.

Results

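The NF-kB subunits and their inhibitors form a group of 10 genes, chosen by symbol, with earlier results of these data known: Nfkb1, Nfkb2, Rel, Rela and Relb for the subunits, and Nfkbia, Nfkbib, Nfkbie, Nfkbiz and Tnfaip3 for the inhibitors. Of these, 9 genes were measured, by 19 of the 45037 probe sets that were not controls. Nfkb1 had no probe set under its symbol in the annotation table and was not analysed here. All 9 lay above the cutoff on low signal and were tested among 10960 genes. The cells were peripheral blood neutrophils of phd3 null mice and of wild-type mice, both on a C57 background and both cultured for 4 h at 3% oxygen. Neutrophils came from individual mice by negative magnetic selection, with 3 Affymetrix arrays per genotype and 6 in all. PHD3 is the prolyl hydroxylase encoded by Egln3. How its gene was inactivated is not given in the labels, and no cells kept at normal oxygen were used here.

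NF-kB is a family of dimeric transcription factors that switch on inflammatory and survival genes. In resting cells the inhibitor (IkB) proteins hold the dimers in the cytoplasm. When a Toll-like or cytokine receptor is engaged, the IKK kinase complex phosphorylates the IkB proteins, which are then ubiquitinated and degraded, and the dimers enter the nucleus. Nfkbia and Tnfaip3 are themselves NF-kB targets, so their products shut the pathway down again. In neutrophils NF-kB activity is tied to cytokine production and delayed apoptosis, also under low oxygen. The genes named here encode parts of this circuit, and the arrays measured their RNA, not nuclear NF-kB.

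Promoter sequence is shown for 4 of the 5 members that had a match to the kappaB consensus, the motif that NF-kB dimers bind. Matches are in capitals. Each line gives the 250 bases before the gene's start, 5′ to 3′ on the gene's strand, from RefSeq in build GRCm38.p6. The windows are chr12:55492648-55492897 (minus strand) for Nfkbia, chr17:45555450-45555699 (plus strand) for Nfkbie, chr10:19015411-19015660 (minus strand) for Tnfaip3 and chr11:23770970-23771219 (minus strand) for Rel.
Nfkbia: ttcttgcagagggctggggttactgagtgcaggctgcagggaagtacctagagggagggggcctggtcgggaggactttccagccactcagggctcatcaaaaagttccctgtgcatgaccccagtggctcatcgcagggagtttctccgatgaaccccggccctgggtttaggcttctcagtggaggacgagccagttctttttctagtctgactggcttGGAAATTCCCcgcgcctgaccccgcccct
Nfkbie: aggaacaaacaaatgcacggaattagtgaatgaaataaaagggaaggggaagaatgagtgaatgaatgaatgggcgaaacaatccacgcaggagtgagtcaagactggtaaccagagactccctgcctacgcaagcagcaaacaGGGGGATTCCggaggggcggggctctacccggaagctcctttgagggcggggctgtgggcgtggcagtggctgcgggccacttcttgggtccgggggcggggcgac
Tnfaip3: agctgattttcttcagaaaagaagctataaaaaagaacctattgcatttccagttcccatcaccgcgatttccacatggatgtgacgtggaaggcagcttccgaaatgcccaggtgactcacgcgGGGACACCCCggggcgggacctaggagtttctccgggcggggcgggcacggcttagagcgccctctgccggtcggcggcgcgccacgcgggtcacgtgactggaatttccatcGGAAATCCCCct
Rel: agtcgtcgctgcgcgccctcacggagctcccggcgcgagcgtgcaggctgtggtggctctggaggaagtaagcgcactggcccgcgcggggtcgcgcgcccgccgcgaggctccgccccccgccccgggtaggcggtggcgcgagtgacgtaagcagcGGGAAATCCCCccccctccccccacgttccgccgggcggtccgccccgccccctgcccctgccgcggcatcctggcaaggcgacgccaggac
Nfkbia had 1 match, GGAAATTCCC, whose first base lay 29 bases before the start. Nfkbie had 1, GGGGGATTCC, from 106 bases before it. Tnfaip3 had 2, GGGACACCCC from 125 and GGAAATCCCC from 12 bases before its start. In Rel the 2 matches, GGGAAATCCC and GGAAATCCCC, overlap and are 1 base apart. Both strands were searched. Of 32851 such windows in the RefSeq table, 7.25% held at least 1 match. Promoters were listed for 7 of the members, some with several starts, and 7 of their 10 windows had a match. Those of Nfkbib and Rela did not, nor did a further start of Tnfaip3. All 3 windows of Nfkb2 had one. Either of the hypoxia-response cores ACGTG and GCGTG, on either strand, was present in 38.6% of all windows, in those of Nfkbie, Tnfaip3 and Rel, and not in that of Nfkbia. A match describes letters only.

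The arrays hold MAS5 signals on a linear scale. Fold changes below are differences of log2(signal + 16), phd3 null minus wild type, each with its SE (standard error) from limma, and p-values were adjusted by Benjamini-Hochberg over all 10960 genes. Signals of different probe sets have no common scale, so levels were compared between arrays and not between genes. Sample numbers 1 to 3 occur in both genotypes, and same-numbered mice share a code in the source labels, so they are called pairs 1 to 3. Both arrays of pair 3 stood apart, their median correlation with the remaining arrays being 0.740 and 0.771, against 0.794 to 0.812 for the others. Egln3, the targeted gene, read 87.2, 29.6 and 73.5 on the phd3 null arrays, in the order of samples 1 to 3, against 2088, 1733.9 and 327 on the wild-type arrays. Values of single arrays are given in this order throughout.

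The neutrophil label was set against markers. S100a8 and S100a9, abundant neutrophil genes, were between 11102.8 and 25479.7 on every array. The receptor gene Cxcr2, another neutrophil marker, was at 25.6 and 227 in pair 3 against 558.9 to 978.9 on the other 4 arrays. Monocyte markers were also present. Csf1r, the M-CSF receptor gene, was at 3537.6 to 11088.3. The summed signal of 5 monocyte markers was 5218 and 6030.9 in pair 3 against 16940 to 19028.9 elsewhere. The sum of 5 B cell markers was 12481.5 and 8224.5 in pair 3 against 741.8 to 2299.8. Between genotypes these sums overlapped, at 5218 to 19028.9 in phd3 null, against 6030.9 to 17899.3 in wild type for monocyte markers. In RNA from a mixed sample, fewer cells of a type and less RNA per cell cannot be told apart.

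**Figure D1:**
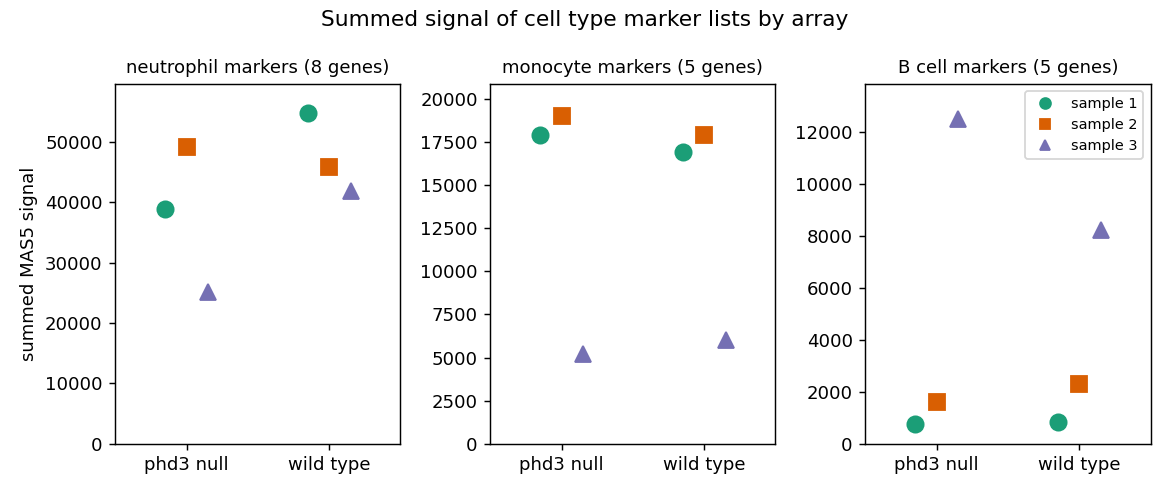
Summed MAS5 signal (linear axis from 0) of neutrophil, monocyte and B cell marker genes on each array, phd3 null on the left and wild type on the right, with 1 point per mouse. Pair 3 (triangles) is lowest for monocyte markers, at 5218 and 6030.9, and highest for B cell markers, at 12481.5 and 8224.5.

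No NF-kB subunit or inhibitor passed the test between genotypes. The count was 0 of 9 at an adjusted p under 0.05 in limma, beside 0 of 10960 genes (0%), and with the pair as a block 0 of 9 beside 2 of 10960 (0.0182%). At an unadjusted p under 0.05 there were 0 members in either fit, beside 191 genes (1.74%) without the block and 616 (5.62%) with it. Over probe sets the count was 0 of 19, beside 0 of 45037 without the block and 0.0133% with it. The phd3 null and wild-type ranges overlapped for 9 of 9 members and 19 of 19 probe sets, whereas they were apart for 6.92% of the genes and 8.53% of the probe sets tested. Of the members 5 were lower and 4 higher in phd3 null, with a median log2 fold change of -0.10. Over all genes 5549 of 10960 were lower, with a median of -0.01. The members' SEs had a median of 0.50 without the block and 0.25 with it, so differences of that size could not be told from 0. Larger ones could be missed too. Egln3 itself, at -3.85 (SE 0.65), did not pass without the block (adjusted p = 0.9996 in limma). With the block it passed (adjusted p = 0.0014 in limma). A count of 0 without the block therefore says little about the members.

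**Figure D2:**
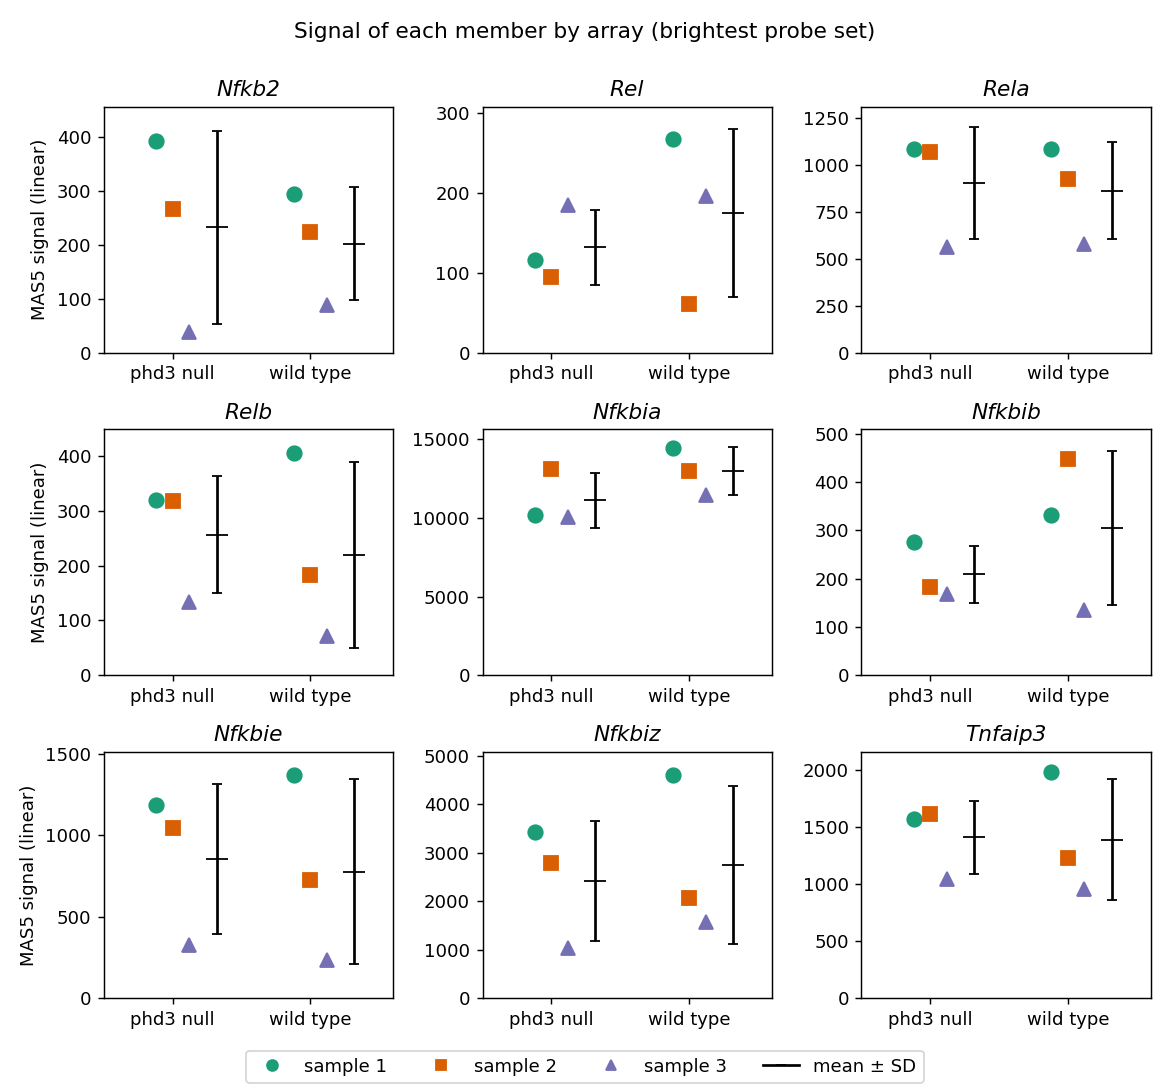
MAS5 signal (linear axes from 0) of each measured member by its brightest probe set, phd3 null on the left and wild type on the right, with 1 point per mouse and the mean ± SD (n = 3) beside them. The genotypes overlap in all 9 panels. Sample 3 (triangles) is the lowest of its genotype in 8 panels, the exception being Rel.

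Among the subunits, Rela encodes p65, the main transactivating subunit of the canonical pathway. It had signals of 1088.3, 1070.9 and 562.1 in phd3 null against 1087.8, 926.6 and 579 in wild type. Samples 1 and 2 were high and sample 3 low in both genotypes, and the log2 fold change was 0.05 (SE 0.39). Relb, the partner of p52 in the non-canonical pathway, was at 319.2, 317.6 and 132.9 in phd3 null, against 405, 182.4 and 71.7 in wild type. Phd3 null was lower in pair 1 and higher in pairs 2 and 3, giving 0.39 (SE 0.57), the highest value among the members. Nfkb2 encodes p100, which acts as an inhibitor until it is cut to p52. Its brighter probe set read 391.5, 265.9 and 38.9 in phd3 null, against 294.5, 223.5 and 88.1 in wild type, a log2 fold change of -0.10 (SE 0.71). The other read 197.9, 128.1 and 236.9 in phd3 null, against 174.7, 111 and 230 in wild type. It was higher in phd3 null in 3 of 3 pairs by 0.13 (SE 0.38, fitted over all probe sets), and it was highest in sample 3, where the brighter one was lowest. The direction for Nfkb2 thus depended on the probe set. Rel encodes c-Rel, a subunit abundant in blood cells. It was at 116.4, 95 and 185.3 in phd3 null, against 267.6, 60.9 and 196.2 in wild type, a log2 fold change of -0.22 (SE 0.50). The within-pair differences of Rel ran from -1.10 in pair 1 to 0.53 in pair 2.

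Nfkbia encodes IkB-alpha, the inhibitor that is degraded within minutes of stimulation and then made anew, and has the promoter match printed above. It was read by 5 probe sets. The brightest gave 10171, 13089.3 and 10051.7 in phd3 null, against 14461.8, 12996.1 and 11444.1 in wild type. Wild-type sample 1 was the highest array, the ranges overlapped, and the log2 fold change was -0.23 (SE 0.37; mean 11104 ± 1720 against 12967 ± 1509, SD, n = 3). Another, of lower signal, gave 4487.2, 3700.2 and 2428.3 in phd3 null, against 5751.6, 3527.9 and 2940.9 in wild type. In both genotypes sample 1 was its highest and sample 3 its lowest array. Over the 5 probe sets the log2 fold change ran from -0.23 to -0.06. In each of the 5, phd3 null was lower in pairs 1 and 3 and higher in pair 2, with pair 1 between -0.51 and -0.16 and pair 2 between 0.01 and 0.30. The probe sets thus gave the same signs in each pair, and no sign was shared by all pairs.

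Nfkbib encodes IkB-beta, which is degraded more slowly. By its brighter probe set it was at 276.5, 183.7 and 167.5 in phd3 null, against 332.2, 448 and 134.5 in wild type, a log2 fold change of -0.39 (SE 0.44). It was the most negative value of the members, and pair 2 differed by -1.22 while pair 3 differed by 0.29. Its other probe set was dim, at 10.1 to 34 in phd3 null, against 23.4 to 60.6 in wild type. Nfkbie encodes IkB-epsilon, an inhibitor that NF-kB induces late. By its brighter probe set Nfkbie was at 1185.1, 1047 and 327 in phd3 null, against 1369.4, 728.6 and 233.2 in wild type, which makes 0.26 (SE 0.66). By the other it was at 419, 373.9 and 174.9 in phd3 null, against 429.2, 307.4 and 166.9 in wild type, and both probe sets put sample 3 lowest in each genotype.

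Nfkbiz encodes IkB-zeta, a nuclear family member that serves as a coactivator for a set of secondary response genes. Its brightest probe set gave 3425.2, 2782.2 and 1029.3 in phd3 null, against 4614.3, 2057.9 and 1565.4 in wild type, a log2 fold change of -0.20 (SE 0.55). Its other probe sets gave -0.15 and 0.22, so the sign depended on the probe set. Tnfaip3 encodes A20, a ubiquitin-editing enzyme that restrains signalling upstream of IKK. The brighter probe set of Tnfaip3 gave 1572.6, 1621.9 and 1044.4 in phd3 null, against 1983.3, 1230.9 and 959.1 in wild type. The difference was 0.06 (SE 0.37), with wild-type sample 1 highest and wild-type sample 3 lowest. By its other probe set the difference was -0.08 (SE 0.39), with 565.1, 854.8 and 308 in phd3 null against 851, 495.7 and 424 in wild type.

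The genotype difference changed sign between pairs. In pair 1, phd3 null was lower for 7 of 9 members, with a median difference of -0.33. In pair 2 it was higher for 8 of 9, with a median of 0.39, and in pair 3 it was lower for 5 of 9, with a median of -0.04. Of all 10960 genes, 5495 were lower in pair 1, 5429 higher in pair 2 and 5515 lower in pair 3. Their medians were -0.003, -0.006 and -0.005. The combination of lower in pair 1 and higher in pair 2 held for 6 of 9 members (Rel, Relb, Nfkbia, Nfkbie, Nfkbiz and Tnfaip3) and for 14 of 19 probe sets. It held for 24.4% of the genes tested. These 6 share the same 4 mice, and their pattern was picked out after the values were seen, so it is given as a description. Wild-type sample 1 was the highest of the 6 arrays for 6 of 9 members, beside 15% of all genes, and these were the same 6 genes. The same direction in 3 of 3 pairs occurred in 0 of 9 members, where 13% of genes were lower and 12.6% higher in every pair.

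**Figure D3:**
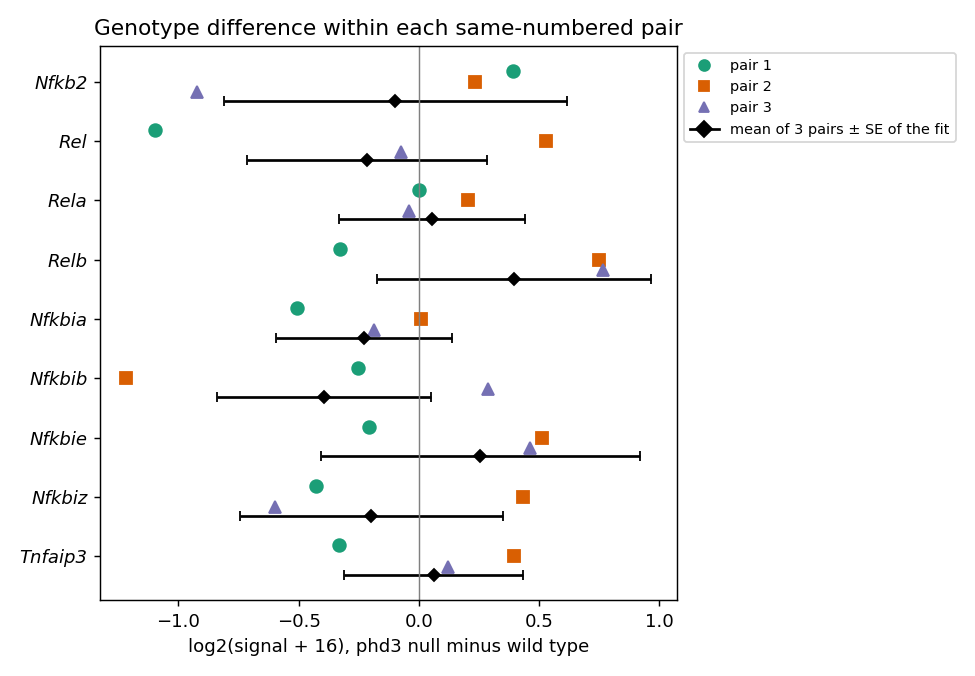
Difference in log2(signal + 16), phd3 null minus wild type, for each member within pairs 1, 2 and 3 (coloured symbols), with the mean of the 3 pairs and the SE of the fit without a block (black). Symbols lie on both sides of 0 for all 9 members, with Rela in pair 1 at 0.0007.

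Between pairs, unlike between genotypes, several members passed a test. A moderated F test of the pair terms in limma, with genotype in the model, called 5 of 9 members at an adjusted p under 0.05, against 11.1% of all genes tested. They were Nfkbie (adjusted p = 2.05e-04), Nfkb2 (0.00224), Nfkbiz (0.00348), Relb (0.0130) and Rela (0.0470), and all were lowest in pair 3. Nfkbie was at 233.2 to 327 in pair 3 against 728.6 to 1369.4 in the other pairs, a difference of -1.87 on the log2 scale. Rela differed by -0.85, Nfkbiz by -1.27 and Relb by -1.44. Nfkb2 differed by -2.01 by the probe set tested, while its other probe set differed by 0.59. That other probe set was not called by the F test (adjusted p = 0.419 over all probe sets). The call of Nfkb2, and its place among the members lowest in pair 3, thus depended on the probe set. Nfkbib (adjusted p = 0.187), Tnfaip3 (0.138), Rel (0.153) and Nfkbia (0.829) were not called. For Nfkbia the pair difference was -0.23 by the brightest probe set and as far as -0.97 by another of its probe sets, which was not called either (adjusted p = 0.0665 over all probe sets). Of the members' probe sets 7 of 19 were called, beside 4.37% of all probe sets. In 8 of 9 members the mean of pair 3 was the lowest, beside 36.2% of all genes. Both arrays of pair 3 lay below the other 4 for 7 of 9 members, beside 16.9% of all genes. Rel was at 185.3 and 196.2 in pair 3, inside the range of 60.9 to 267.6 on the other 4 arrays. Without the trend in the prior variance the F test called 0 of 9 members and 0 of 10960 genes (4 members and 1883 genes at an unadjusted p under 0.05). With pairs 1 and 2 alone it called 0 of 9 members (2 at an unadjusted p under 0.05), and without wild-type sample 1 it called 3. Without phd3 null sample 2 it called 8. Relb lost its call without wild-type sample 1 (adjusted p = 0.0584), and Rela lost it when sample 1 or sample 3 of either genotype was left out (0.127 to 0.329).

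**Figure D4:**
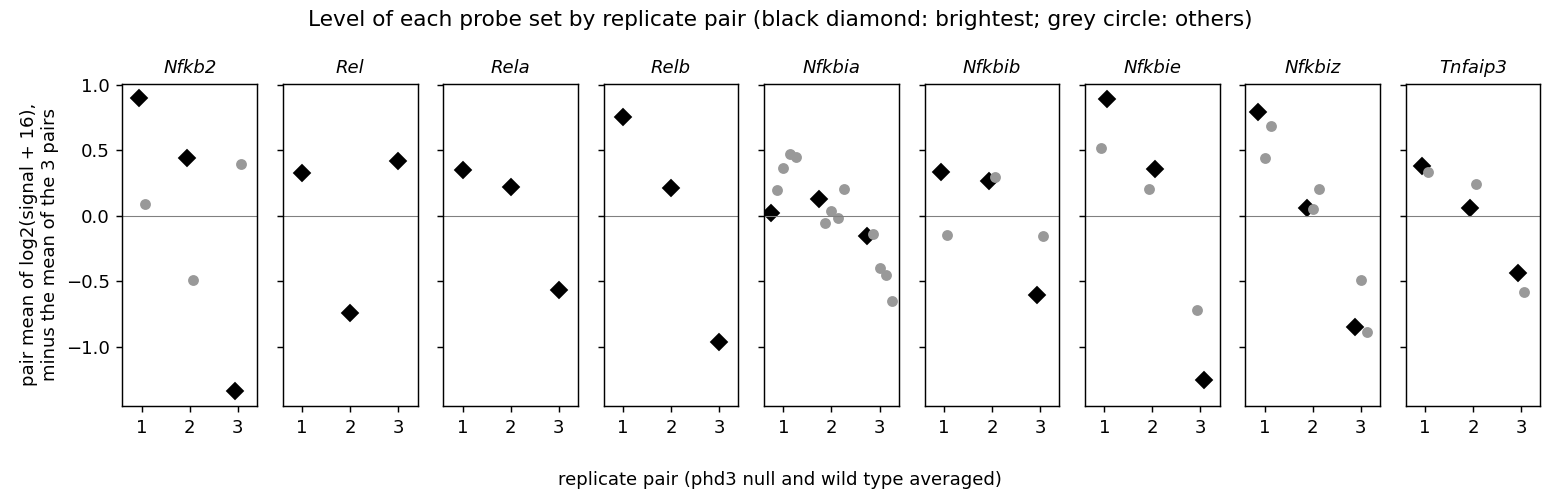
Level of each of the 19 member probe sets in pairs 1 to 3, as the mean log2(signal + 16) of the phd3 null and wild-type arrays of that pair minus the probe set's mean over the pairs. Black diamonds are the brightest probe set of a gene and grey circles its others; 17 of 19 are lowest in pair 3, and those of Rel and 1 of Nfkb2 are not.

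The members that were low in pair 3 went with a low sum of monocyte markers on the same arrays, as given above, with F13a1 at 455.1 and 474.9 against 4135 to 6879.1. The monocyte markers Ccr2 (301.1 and 385.4) and Cx3cr1 (169.3 and 361.1) overlapped the other arrays. Of the neutrophil markers, Csf3r (1281.9 and 1745.7 against 2113.2 to 5118.4) and Mmp8 (269.9 and 536 against 805.8 to 1670.4) were low too, as was Cxcr2. Mmp9, Camp, Ltf, S100a8 and S100a9 overlapped. The members low in pair 3 also went with a lower Gapdh signal, at 3107.5 and 3491.4 against 6656.3 to 8276.6 by its 3′ control probe set. The 3′ actin signal overlapped, at 7663.2 and 11042.6 against 9032.1 to 13919. The ratio of 3′ to 5′ Gapdh signal, used to judge RNA integrity, was 0.773 and 0.659 in pair 3 against 0.726 to 0.805. For actin it was 1.89 and 1.72 against 1.63 to 2.09, inside the range of the other arrays. The part that cell content played in the members' levels was not tested.

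Other genes of the pathway were taken from lists chosen by role, with earlier results of these data known. Of 67 tested genes beyond the members, 44 were lower and 23 higher in phd3 null, with a median log2 fold change of -0.13, and with or without the block 0 passed over all genes. Their phd3 null and wild-type ranges were apart in 5 of 67 cases, beside 6.92% of all genes. Of 9 genes for the IKK complex and its kinases, 7 were lower, with a median of -0.37. Map3k7 encodes TAK1, the kinase that activates IKK. It was at 92, 114.5 and 103.9 in phd3 null, against 177.1, 217.6 and 155.1 in wild type, so that every phd3 null mouse lay below every wild-type mouse. Map3k7 differed by -0.73 (SE 0.31) and did not pass in limma (adjusted p = 0.9996, unadjusted p = 0.0403). Ikbkg encodes NEMO, the regulatory subunit of IKK. It was at 475.6, 419.5 and 101.8 in phd3 null, against 755.7, 628.2 and 151.8 in wild type. The ranges of Ikbkg overlapped because sample 3 was low in both genotypes, while within pairs it differed by -0.65, -0.56 and -0.51. It did not pass with the block either (adjusted p = 0.842 in limma, unadjusted p = 0.0275). Tab3, which encodes an adaptor of TAK1, differed by -0.56 (SE 0.38).

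Receptor adaptors and ubiquitin ligases were lower in 7 and higher in 6 of 13 cases, with a median of -0.04. Irak1, a kinase gene of Toll-like receptor signalling, differed by -0.44 (SE 0.32), Traf6, a ubiquitin ligase gene on the same route, by 0.56 (SE 0.47) and Traf5 by 0.72 (SE 0.64). Brakes on the pathway were higher in 7 of 11 cases, with a median of 0.03. Zc3h12a encodes regnase-1, which degrades inflammatory mRNAs. It was at 125.5, 167.9 and 113.5 in phd3 null, against 288.2, 173.7 and 198.7 in wild type, with the ranges apart and a log2 fold change of -0.63 (SE 0.33). Otulin, a deubiquitinase gene, was at 187.6, 173 and 176.8 in phd3 null, against 123.6, 160.4 and 50.1 in wild type, the ranges again apart (0.73, SE 0.40). Tnip2, which encodes a partner of A20, was dim and scattered (-0.71, SE 0.77). The related IkB-like genes Nfkbid and Bcl3 differed by 0.39 (SE 0.40) and 0.14 (SE 0.43). Of the ubiquitin ligase that marks IkB, Fbxw11, Btrc and Cul1 differed by -0.19 (SE 0.37), -0.09 (SE 0.50) and 0.06 (SE 0.41).

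NF-kB target genes were lower in phd3 null in 24 of 29 cases, beside 5549 of all 10960 genes. Their median log2 fold change was -0.33, and 0 of 29 passed. The median was -0.52 in pair 1, 0.02 in pair 2 and -0.49 in pair 3. Leaving out pair 3, 22 of 29 were lower, with a median of -0.27, beside 5528 of 10960 genes. That subset still holds wild-type sample 1, and the list was not summarised without this array. The summed signal of 6 NK cell markers was 452.1, 2634.4 and 2007.2 in phd3 null, against 1312.4, 5655.3 and 2999.5 in wild type, lower in each pair with overlapping ranges. Gzma was the largest part of this sum on every array. Klrk1, Klre1, Klra8 and Gzma were lower in each pair, whereas Ncr1 was higher in pairs 1 and 3 and Prf1 in pair 1. The part of NK cell content in the target genes was not tested. With the pair as a block, 11 of 29 had an unadjusted p under 0.05, beside 5.62% of all genes, 10 of them lower, and 0 passed after adjustment in limma. Phd3 null was lower in 3 of 3 pairs for 8 of 29, beside 13% of all genes. The list was chosen with earlier results of these data known, and its genes share the same 6 mice. These counts are therefore given as descriptions. The smallest p with the block was that of the chemokine gene Cxcl2, which was lower in every pair, by -0.85, -0.36 and -0.79 (adjusted p = 0.787 in limma). Wild-type sample 1 was the highest array for Cxcl2, at 14166.1 against 1957.4 to 7839.7 on the others. Without the block the smallest p-values belonged to Ptges, Il23a and Ccl3. Ptges, a prostaglandin E synthase gene, was higher, at 109.9, 73.5 and 107.4 in phd3 null against 31.4, 17.2 and 66.4 in wild type (log2 fold change 1.14, SE 0.49). Il23a, which encodes a subunit of interleukin 23, differed by -0.99 (SE 0.53). It was dim, at 25.1, 19.1 and 54.5 in phd3 null against 112.3, 76.8 and 51 in wild type, and pair 3 differed by 0.07. The chemokine gene Ccl3 differed by -0.74 (SE 0.52), with wild-type sample 1 at 6115.1 against 1168.1 to 2108.5 on the other arrays. Between pairs, 15 of 29 target genes were called by the F test, beside 11.1% of all genes, and 13 of these were lowest in pair 3. With pairs 1 and 2 alone it called 6 of 29, where 107 of 10960 genes were called, and without the trend it called 0 of 29. Sod2, the mitochondrial superoxide dismutase gene, was at 235 and 538 in pair 3 against 2247 to 3766.9, and Cd83 went the other way, at 998.9 and 620.8 against 149.2 to 301.7. The B cell marker sum was high on the same arrays, and its part in the level of Cd83 was not tested.

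Nfkbia lies near Egln3 on chromosome 12, so the genes around Egln3 were set beside it. In the order of gene starts it was the 12th of the measured genes nearest to Egln3. Of the 20 nearest, Nfkbia among them, 17 were tested, 13 lower and 4 higher in phd3 null, beside 5549 lower of all 10960 genes. Their median log2 fold change was -0.11, and 0 were called in either fit. The ranges were apart for 1 of 17, beside 6.92% of all genes. Srp54b differed by -0.75 (SE 0.51) and Brms1l by 0.45 (SE 0.39). Psma6, a proteasome subunit gene next to Nfkbia in this order, differed by -0.18 (SE 0.49).

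The genes whose pattern over the 6 arrays was most like that of a member were found by the root mean square difference of centred log2 values. For Nfkbia they were Tra2a (0.060), Cert1 (0.070) and Pip4p1 (0.072), where the median gene was at 0.518. For Tnfaip3 they were Mef2a (0.059), Skil (0.065) and Slc35f6 (0.070), where the median gene was at 0.610. The nearest fellow member ranked 1530th of 10959 genes for Nfkbia, namely Tnfaip3 at 0.303, and 86th for Tnfaip3, namely Rela at 0.172. All these values use each gene's brightest probe set, and the other probe sets were not ranked. Over the 5 probe sets of Nfkbia, pair 3 differed from the other pairs by -0.21 to -0.97. The genes and ranks given for Nfkbia therefore hold for its brightest probe set only. With 6 arrays many genes share a pattern closely, so these likenesses are descriptions.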

How the data were processed

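The deposited values are linear intensities that the authors made with MAS5, per the submitters' processing notes. The MAS5 version and a genome build are not given in the sources used here. In the deposited intensities, the mean after trimming 2% at each end was 100 on every array, and detection calls were not used. Of 45101 probe sets, 64 controls were left out of the tests. Symbols came from the platform's annotation table, and 18033 of 18195 gene IDs matched RefSeq (GRCm38.p6), used for gene order and promoters.

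A gene stood for its probe set of highest mean log2(signal + 16), and genes with a mean below 5.90, the median of the probe sets, were not tested. Genotypes were compared with limma 3.58.1 in R 4.3.3 (two-sided, trend in the prior variance, no block), adjusted by Benjamini-Hochberg. A second fit used every probe set unfiltered. The pair test is the moderated F test of the pair terms in the fit with genotype and replicate number. The code was tested on simulated data. The number of arrays limits the precision.

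Same-numbered samples share a source code, and their deviations from the group means correlated at 0.292, 0.151 and 0.474. Different numbers gave -0.363 to 0.177, a range that holds the value of pair 2. Same-numbered mice were called pairs, and the pair entered the block fit and the pair test. The main fit between genotypes and the SEs given beside single genes do not use it.

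Members and lists were chosen with earlier results of these data known. Named genes are all members, Egln3, the 3 of smallest p per list, the 3 of smallest p near Egln3 (the one of smallest p is not reported here) and the 3 of most like pattern. Psma6, Cxcl2, Sod2, Cd83 and the marker genes were chosen after their values were seen.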

Additional observations from a re-analysis of the deposited data

How the results depend on the processing

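No member passed between genotypes under any of the 16 alternatives tried per member, where the lowest adjusted p in limma was 0.543, for Nfkbib. Signs were less settled: 25 of 144 values turned, none of them past the threshold. Nfkb2 turned to 0.14 with a pseudocount of 1, 0.13 with quantile normalization, 0.015 with the mean of its probe sets, 0.21 with array quality weights and 0.31 without pair 3, with or without the replicate block. The brightest probe set was chosen anew under each scaling. With a pseudocount of 1 the value of Nfkb2 came from its other probe set, and with quantile normalization it may have. Under that normalization the probe set of the main fit still differed by -2.10 between pair 3 and the other pairs. The pair test of Nfkb2 in these settings (adjusted p = 0.262 and 0.249 by the F test) carries the same limit. Nfkbiz turned to 0.049 with array weights and 0.002 without pair 3, with or without the block, and Tnfaip3 to -0.011 with the mean of its probe sets. Leaving out 1 array gave -0.67 to 0.78 for Nfkb2, -0.42 to 0.83 for Nfkbie, -0.53 to 0.33 for Nfkbiz, -0.77 to 0.17 for Rel, -0.20 to 0.36 for Rela, -0.18 to 0.95 for Relb and -0.17 to 0.35 for Tnfaip3, and -0.32 to 0.33 for the members' median. Nfkbia and Nfkbib stayed below 0 in all 16, at -0.35 to -0.15 and -0.87 to -0.05 when 1 array was left out, and Nfkbia was at -0.029 with quantile normalization. The replicate block changed no member's call. Over all genes the count called was 2 with the block, 1 without pair 3, 46 without pair 3 with the block, and 0 to 1 when 1 array was left out. Over probe sets it was 6 with the block, 1 with array weights, 5 without pair 3, 102 without pair 3 with the block, and 0 to 6 when 1 array was left out. The pair test rested on the prior variance and on pair 3. It called 602 genes with probe sets averaged, 0 with no trend, 107 without pair 3, and 865 to 1642 when 1 array was left out. Members called by it numbered 3 with a pseudocount of 1, with quantile normalization or with probe sets averaged, 0 with no trend or without pair 3, and 3 to 8 when 1 array was left out. Rela was called in 5 of 14 settings, Nfkb2 in 9, Relb in 11, and Nfkbie and Nfkbiz in 12 each. Settings that leave out arrays from the pair test, and the block without pair 3, were added after seeing the data. The causes were not tested. Without detection calls, how far the dim probe sets lay above background is unknown.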
